A study of Rattus norvegicus with 6 samples.

Results

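The netrin and Slit guidance system was described here by 10 genes of rat hippocampal cultures, taken by symbol from the count table: the netrin receptors Dcc, Neo1, Unc5a, Unc5c and Unc5d, the netrin ligand Ntn1, the Slit receptors Robo1 and Robo2, and the Slit ligands Slit1 and Slit2. They were 10 of the 26405 genes in the table, each was found once under its own symbol, and all 10 passed the filter on low counts that left 13917 genes to be tested. The study knocked down S-SCAM, a postsynaptic scaffold protein encoded by Magi2, and asked how the loss of this scaffold changed gene expression. RNA was sequenced from 3 S-SCAM KD cultures, transduced at day 2 in vitro (DIV2) with lentivirus carrying a short hairpin RNA against S-SCAM, and 3 Control cultures, transduced at DIV2 with a vector without that hairpin, which the labels call empty. All 6 were dissociated hippocampal neurons of wild-type rats harvested at DIV9, and the vector that carried the hairpin also expressed EGFP. A single hairpin sequence was used for sequencing, so that its own off-target effects cannot be told apart from those of S-SCAM loss, and the RNA came from all cells of a culture, transduced or not.

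Netrins are secreted cues that attract or repel growing axons. Dcc and its relative Neo1 are transmembrane receptors that mediate attraction to netrin, and Neo1 also binds repulsive guidance molecules. The Unc5 receptors turn the response into repulsion, alone or together with Dcc. Slits are large secreted proteins that repel axons and neurites through Robo receptors, and Robo1 can bind the cytoplasmic part of Dcc and silence the attraction to netrin. In the hippocampus these cues steer axons during development, and the same molecules act in dendrite branching and synapse formation.

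The promoter windows of the homologous netrin receptors Dcc and Neo1 differed in base composition, and they are printed with that of Robo2, the Slit receptor with the higher mean in S-SCAM KD. Each window runs 5′ to 3′ on the gene's strand from 250 bases before to 50 after the start, from RefSeq on GRCr8. Capitals mark GGGCGG, the GC box that Sp factors bind, or its reverse complement CCGCCC. The windows lie at chr18:68247625-68247924 on the minus strand for Dcc, chr8:68322103-68322402 on the minus strand for Neo1 and chr11:26526363-26526662 on the minus strand for Robo2.
Dcc: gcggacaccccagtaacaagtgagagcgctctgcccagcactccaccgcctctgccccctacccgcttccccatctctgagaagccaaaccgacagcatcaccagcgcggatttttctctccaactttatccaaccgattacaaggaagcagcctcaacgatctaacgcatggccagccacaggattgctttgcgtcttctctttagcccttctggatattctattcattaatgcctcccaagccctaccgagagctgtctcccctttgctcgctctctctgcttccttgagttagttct
Neo1: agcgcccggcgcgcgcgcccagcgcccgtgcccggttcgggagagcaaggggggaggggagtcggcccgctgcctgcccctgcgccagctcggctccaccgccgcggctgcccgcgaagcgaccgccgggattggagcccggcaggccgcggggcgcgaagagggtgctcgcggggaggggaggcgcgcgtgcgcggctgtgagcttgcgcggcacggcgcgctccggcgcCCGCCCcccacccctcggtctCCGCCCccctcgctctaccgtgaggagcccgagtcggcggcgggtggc
Robo2: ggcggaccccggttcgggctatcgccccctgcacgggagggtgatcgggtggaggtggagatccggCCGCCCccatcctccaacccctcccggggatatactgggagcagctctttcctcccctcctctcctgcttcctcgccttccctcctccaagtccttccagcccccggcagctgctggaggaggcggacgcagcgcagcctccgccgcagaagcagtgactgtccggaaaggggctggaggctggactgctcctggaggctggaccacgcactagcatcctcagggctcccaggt
The Dcc window had a GC content of 53.7% with 13 CpG dinucleotides and held no GC box. The Neo1 window had a GC content of 81.0% with 50 CpG dinucleotides and held 2 GC boxes. The Robo2 window stood between them, with 68.3% GC, 18 CpG dinucleotides and 1 GC box. Of the 10 genes, 5 had a window in the table: the others were Unc5a, at 77.7% GC with 4 GC boxes, and Robo1, whose 2 alternative starts had 45.7% and 57.3% GC and no GC box. Over all 33469 windows of 300 bases the median GC content was 51.7%, the median was 7 CpG dinucleotides, and a GC box stood on either strand in 33.1%. The TATA sequence TATAAA, found in 14.2% of all windows, and the E-box CACGTG, found in 6.42%, were in none of the windows of these 5 genes. A match is only a match of letters in the window.

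Magi2 itself was lower in every S-SCAM KD culture. It had 30.4, 21.1 and 40.4 CPM (counts scaled to the TMM-normalized library size) in S-SCAM KD cultures 1, 2 and 3, against 82.8, 74.7 and 95.8 CPM in Control cultures 1, 2 and 3. The mean was 36.3% of Control, with a log2 fold change of -1.46 (SE 0.27, n = 3 each). The edgeR quasi-likelihood test, adjusted after Benjamini and Hochberg over all genes, gave Magi2 an adjusted p of 0.228, and DESeq2 gave 0.00124. No gene had a smaller adjusted p in edgeR, but others shared this value. Of these, Phf24 had a smaller unadjusted edgeR p than Magi2, 0.000432 against 0.000452. An exact two-sided permutation test of Magi2 over the 6 cultures gave p = 0.1, the smallest that 3 against 3 allows. The edgeR test therefore called no gene at an adjusted p under 0.05 (0% of 13917), including the gene that was knocked down, while 1506 genes had an unadjusted p under 0.05 and DESeq2 called 195 genes. Differences in the 10 genes are reported below on that background.

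The libraries held 18350062 to 29654651 counts in S-SCAM KD and 13061705 to 24874466 in Control. On the first principal component S-SCAM KD culture 2 stood at -73.7, while S-SCAM KD cultures 1 and 3 stood at -24.2 and 17.0 and the Control cultures between 22.1 and 30.4. Neuronal markers were present throughout, with a summed level of 3441 to 4662 CPM in S-SCAM KD and 3371 to 5597 CPM in Control over 7 matched genes. Of these 7, 5 had lower and 2 higher fitted values, with a median log2 fold change of -0.30. For 7 markers of hippocampal principal neurons the median was -0.28, with 5 lower and 2 higher. Summed astrocyte markers were 1960 to 5287 CPM in S-SCAM KD and 4112 to 8988 CPM in Control, with lower means for 7 of 7. Summed fibroblast markers were 63.4 to 281 CPM in S-SCAM KD and 150 to 389 CPM in Control, with lower means for 5 of 5 tested. Most of this sum was Pdgfra, which is also on the oligodendrocyte lineage list. Pdgfra had 51.3 to 227 CPM in S-SCAM KD and 82.8 to 321 CPM in Control. Summed microglia markers were 0.381 to 4.77 CPM in S-SCAM KD and 4.27 to 59.9 CPM in Control. Summed GABAergic markers were 829 to 1204 CPM in S-SCAM KD and 754 to 935 CPM in Control, with higher fitted values for 7 of 9. Summed Cajal-Retzius markers were 104 to 287 CPM in S-SCAM KD and 200 to 522 CPM in Control. Nearly all of this was Reln alone, at 103 to 282 CPM in S-SCAM KD and 198 to 512 CPM in Control. Summed oligodendrocyte lineage markers were 549 to 1616 CPM in S-SCAM KD and 504 to 1466 CPM in Control. No marker on these lists was at 0 in all 6 cultures. The part of these cell types in the results below was not tested, and in bulk RNA fewer cells of a type and less RNA per cell cannot be told apart.

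All 5 netrin receptors had lower mean levels in S-SCAM KD. This direction held for each of them in all 20 alternative analyses, which were refits of the same cultures. The median log2 fold change of the 5 receptors was -0.47, beside -0.02 over all genes tested and -0.30 over the 7 neuronal markers. The groups did not overlap for 3 of them, Dcc, Unc5c and Unc5d. Over all genes tested, 10.2% were lower in S-SCAM KD without overlap between the groups. An unadjusted edgeR p under 0.05 was reached by 1 of them, Dcc, beside 7.14% of all genes in that direction. None passed the adjusted threshold.

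Dcc, the attractive netrin receptor (ENSRNOG00000033099, chr18:65693812-66392627 on rn5), had the largest fold difference of the 10 genes in edgeR with all cultures and without length correction. With length offsets those of Ntn1 and Robo2 were larger. Without S-SCAM KD culture 2 that of Ntn1 was larger in edgeR, at 0.75 against -0.70 for Dcc. Dcc was measured at 13.3, 12.0 and 22.8 CPM in S-SCAM KD cultures 1, 2 and 3, against 26.5, 26.2 and 37.4 CPM in Control cultures 1, 2 and 3. Every S-SCAM KD culture was below every Control culture, S-SCAM KD culture 3 being the closest to the Control range. The means were 16.1 ± 5.90 CPM in S-SCAM KD and 30.0 ± 6.35 CPM in Control (SD, n = 3 each), or 53.5% of Control. The log2 fold change was -0.90 (SE 0.31, 95% confidence interval -1.61 to -0.20), with an unadjusted p of 0.0175 and an adjusted p of 0.404 in edgeR. DESeq2 gave an adjusted p of 0.225. These values rested on 246 to 516 counts per library in S-SCAM KD and 320 to 946 in Control. Without S-SCAM KD culture 3, an analysis chosen after the data were seen, DESeq2 gave a log2 fold change of -1.22 with an adjusted p of 0.00497, and over all alternatives the adjusted p lay between 0.00497 and 0.759. In edgeR the log2 fold change was -0.76 without S-SCAM KD culture 1, -0.70 without S-SCAM KD culture 2 and -0.69 without Control culture 3. The unadjusted edgeR p was then 0.0717, 0.0619 and 0.0868, and it stayed under 0.05 with any other culture left out.

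The repulsive receptors Unc5c (ENSRNOG00000029071, chr2:265573556-265919845) and Unc5d (ENSRNOG00000011858, chr16:66680943-67223786) were also lower without overlap, by smaller amounts. Unc5c had 16.5, 12.0 and 10.5 CPM in S-SCAM KD cultures 1, 2 and 3, against 18.3, 17.1 and 18.7 CPM in Control cultures 1, 2 and 3. The Control cultures lay close together, and S-SCAM KD culture 1 came within 1 CPM of the lowest of them. The log2 fold change of Unc5c was -0.47 (SE 0.25, 95% confidence interval -1.05 to 0.10), with an unadjusted p of 0.0934 and an adjusted p of 0.527 in edgeR. Unc5d had 21.5, 13.7 and 18.7 CPM in S-SCAM KD cultures 1, 2 and 3, against 26.1, 30.3 and 23.1 CPM in Control cultures 1, 2 and 3. The lowest culture for Unc5d was S-SCAM KD culture 2, the library that stood apart on the first component. Its log2 fold change was -0.56 (SE 0.25, 95% confidence interval -1.13 to 0.01), with an unadjusted p of 0.0541 and an adjusted p of 0.468 in edgeR. Without S-SCAM KD culture 2 the log2 fold change of Unc5d was -0.36.

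For Neo1 (ENSRNOG00000006490, chr8:63421646-63524303) and Unc5a (ENSRNOG00000025920, chr17:12262674-12317433) the groups overlapped. Neo1, the broadly expressed relative of Dcc, had 466, 304 and 292 CPM in S-SCAM KD cultures 1, 2 and 3, against 521, 392 and 558 CPM in Control cultures 1, 2 and 3. The overlap came from S-SCAM KD culture 1, which exceeded Control culture 2. Its log2 fold change was -0.47 (SE 0.25), with an adjusted p of 0.536 in edgeR. Unc5a, another repulsive receptor, ranged over 41.2 to 53.1 CPM in S-SCAM KD and 40.5 to 61.8 CPM in Control, with a log2 fold change of -0.26 (SE 0.24) and an adjusted p of 0.719 in edgeR. With 1 culture left out the log2 fold change of Unc5a lay between -0.43 and -0.12. Its lowest value was in Control culture 1, so that the groups overlapped.

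**Figure D1:**
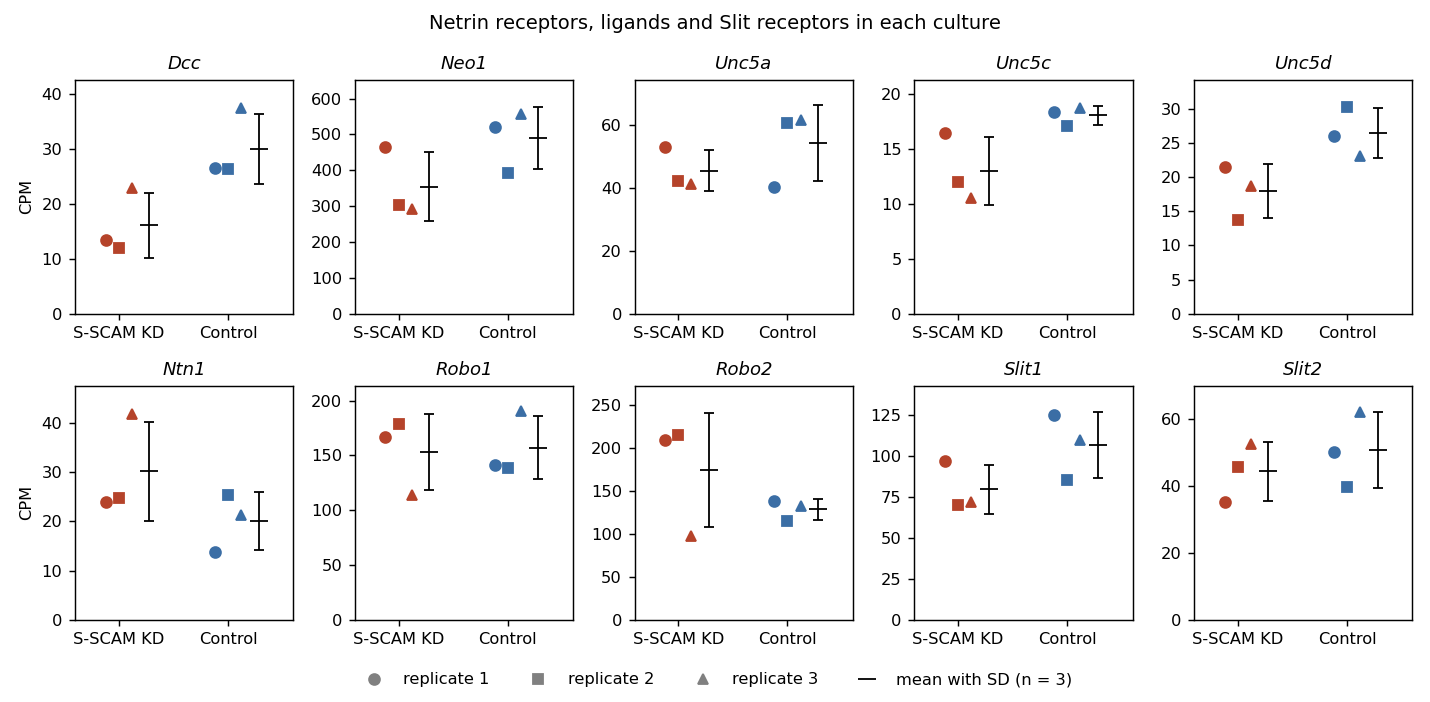
CPM (vertical axes from 0, scaled per gene) of the 10 genes in 3 S-SCAM KD and 3 Control cultures, with point shapes for the replicate numbers and bars for the mean and SD. Only Dcc, Unc5c and Unc5d show groups without overlap, with all S-SCAM KD points below all Control points.

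The netrin ligand Ntn1 (ENSRNOG00000003947, chr10:54507536-54711662) had a higher mean in S-SCAM KD, opposite in direction to all 5 of its receptors. Ntn1 had 24.0, 24.8 and 41.8 CPM in S-SCAM KD cultures 1, 2 and 3, against 13.8, 25.3 and 21.2 CPM in Control cultures 1, 2 and 3. Control culture 2 was above S-SCAM KD cultures 1 and 2, so that the groups overlapped, and S-SCAM KD culture 3 was above all others. The means were 30.2 ± 10.1 CPM in S-SCAM KD and 20.1 ± 5.83 CPM in Control (SD, n = 3 each). The log2 fold change was 0.59 (SE 0.32, 95% confidence interval -0.14 to 1.32), with an adjusted p of 0.538 in edgeR. The log2 fold change of Ntn1 was 0.28 without S-SCAM KD culture 3 and 0.38 without Control culture 1. The 2 genes that differed most in opposite directions were also read as the log2 ratio of Ntn1 to Dcc within a culture, set to a mean of 0 in Control and chosen after its values were seen. It was 1.45, 1.65 and 1.48 in S-SCAM KD cultures 1, 2 and 3, against -0.34, 0.55 and -0.21 in Control cultures 1, 2 and 3. The groups were apart, with a mean difference of 1.52, and no test was made of a ratio picked in this way. The groups overlapped for the 4 other ratios computed, Robo2 to Robo1, Slit2 to Slit1, Unc5a to Dcc and Neo1 to Dcc.

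The Slit receptors Robo1 (ENSRNOG00000029614, chr11:13298875-13807531) and Robo2 (ENSRNOG00000029598, chr11:14733231-14884133) differed in their direction. Robo1 had 167, 179 and 114 CPM in S-SCAM KD cultures 1, 2 and 3, against 142, 139 and 190 CPM in Control cultures 1, 2 and 3. Culture 3 of each group stood apart from the other two of its group, on opposite sides, and the log2 fold change of -0.03 (SE 0.24, 95% confidence interval -0.58 to 0.51) became 0.14 without S-SCAM KD culture 3, 0.16 without Control culture 3 and 0.37 after correction for gene length. The edgeR adjusted p of Robo1 was 0.969. Robo2 had 209, 215 and 97.5 CPM in S-SCAM KD cultures 1, 2 and 3, against 138, 115 and 132 CPM in Control cultures 1, 2 and 3. S-SCAM KD cultures 1 and 2 were above all Control cultures, and S-SCAM KD culture 3 was below all of them. Slc32a1, the vesicular GABA transporter of GABAergic neurons, was likewise high in S-SCAM KD cultures 1 and 2. It had 190, 220 and 97.1 CPM in S-SCAM KD cultures 1, 2 and 3. Control cultures 1, 2 and 3 had 99.4, 93.1 and 82.9 CPM of it. Of the 9 GABAergic markers, 7 had higher and 2 lower fitted values in S-SCAM KD, and they did not all follow Slc32a1 culture by culture. Sst was highest in Control culture 2, at 437 CPM, and Dlx1 in Control culture 1, at 161 CPM. Dlx5 was higher in S-SCAM KD without overlap. Gad2 was lower without overlap, at 54.4, 43.4 and 69.5 CPM in S-SCAM KD cultures 1, 2 and 3. Its values in Control cultures 1, 2 and 3 were 84.0, 72.9 and 74.4 CPM. The part of GABAergic neurons in the values of Robo2 was not tested. The SD of Robo2 was 66.3 CPM in S-SCAM KD and 12.0 CPM in Control. Its log2 fold change was 0.44 (SE 0.30, 95% confidence interval -0.25 to 1.12), with an adjusted p of 0.631 in edgeR, and it was 0.29 without S-SCAM KD culture 2. Without S-SCAM KD culture 3, DESeq2 gave Robo2 a log2 fold change of 0.75 and an adjusted p of 0.0371, against an adjusted p of 0.669 with all cultures, and over all alternatives its adjusted p lay between 0.0371 and 0.997.

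The Slit ligands Slit1 (ENSRNOG00000026065, chr1:268298680-268445090) and Slit2 (ENSRNOG00000003840, chr14:66864065-67201603) had lower means in S-SCAM KD with overlapping groups. Slit1 had 96.9, 70.1 and 72.1 CPM in S-SCAM KD cultures 1, 2 and 3, against 125, 85.6 and 109.7 CPM in Control cultures 1, 2 and 3. S-SCAM KD culture 1 exceeded Control culture 2 and the remaining values were ordered by group. The log2 fold change of Slit1 was -0.42 (SE 0.22, 95% confidence interval -0.94 to 0.09), with an adjusted p of 0.527 in edgeR. Slit2 had 35.2, 45.6 and 52.5 CPM in S-SCAM KD cultures 1, 2 and 3, against 50.4, 39.8 and 62.3 CPM in Control cultures 1, 2 and 3. The groups of Slit2 were interleaved, with the lowest value in S-SCAM KD culture 1 and the highest in Control culture 3. Its log2 fold change was -0.19 (SE 0.25, 95% confidence interval -0.76 to 0.37), with an adjusted p of 0.801 in edgeR, and it turned positive without Control culture 3 (0.0064) and after correction for gene length (0.16).

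Taken by count, 8 of the 10 genes had a lower mean and 2 a higher mean in S-SCAM KD, with a median log2 fold change of -0.34. Over all genes tested 52.4% had a negative log2 fold change and the median was -0.02. Over the 7 neuronal markers the median was -0.30, with 5 lower and 2 higher. Without Control culture 3 the count was 6 lower and 4 higher, and without the outlying S-SCAM KD culture 2 it was again 8 and 2. None of the 10 genes was higher without overlap or at an unadjusted p under 0.05, beside 7.42% and 3.69% of all genes. DESeq2 called none of the 10, beside 1.07% of genes called lower.

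**Figure D2:**
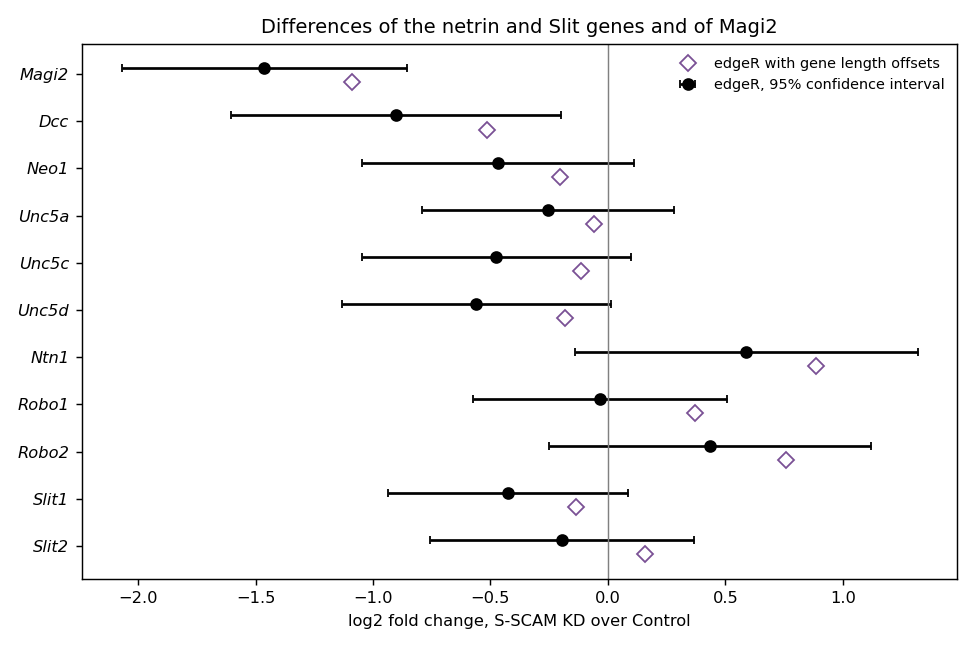
Log2 fold change of S-SCAM KD over Control (horizontal axis) for Magi2 and the 10 genes, as edgeR estimates with 95% confidence intervals (circles) and as edgeR estimates with gene length offsets (diamonds). Among the 10 genes only the interval of Dcc, from -1.61 to -0.20, excludes 0, and every diamond lies to the right of its circle.

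The genes of this system are long, and gene length moved with the difference between groups. Their median span from start to end, introns included, was 270833 bases, beside 20278 over all genes tested. The longest was Dcc, at 698816 bases, followed by Unc5d at 542844 bases and Robo1 at 508657 bases. Over all genes, the median log2 fold change was 0.08 below 10 kb and -0.37 above 300 kb, where 78.3% of 318 genes had lower values in S-SCAM KD. Of the genes above 300 kb, 30.2% were lower without overlap, and Dcc, Unc5c and Unc5d all belonged to them. Between 100 and 300 kb, where Neo1, Ntn1, Robo2 and Slit1 lie, the median was -0.18. Above 300 kb, Dcc at -0.90, Unc5d at -0.56 and Unc5c at -0.47 lay below the class median, and Robo1 at -0.03 and Slit2 at -0.19 above it. The lower quartile of that class was -0.69, and of these genes only Dcc lay below it. Between 100 and 300 kb, Neo1 at -0.47 and Slit1 at -0.42 lay below the class median, and Ntn1 and Robo2 above it.

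With a smooth trend on gene span removed from each library, the fold changes of all 10 genes moved upward. Their median was then -0.09, beside 0.08 over all genes, with 6 lower and 4 higher. Dcc had a length-corrected log2 fold change of -0.51 with an unadjusted edgeR p of 0.106. Unc5c and Unc5d came to -0.11 and -0.18, and Neo1 and Unc5a to -0.20 and -0.06. Ntn1 was at 0.88 with an unadjusted p of 0.0154 and an adjusted p of 0.454, and Robo2 was at 0.76 with an unadjusted p of 0.0484 and an adjusted p of 0.474. No gene of the system passed the adjusted threshold with this correction. Whether gene length itself acts on these values was not tested.

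**Figure D3:**
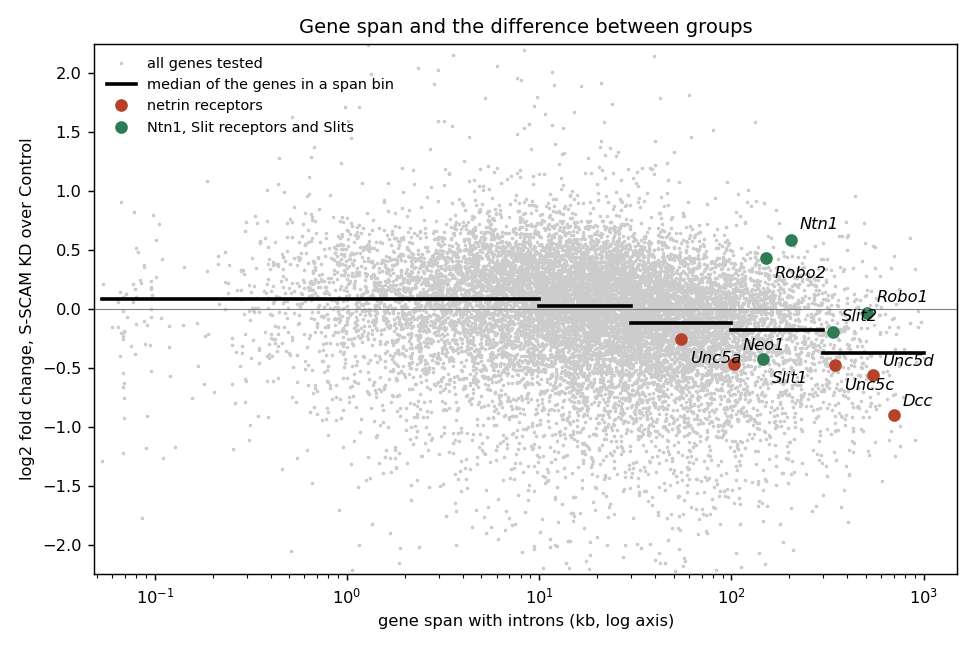
Log2 fold change of S-SCAM KD over Control (vertical axis) against gene span with introns (horizontal log axis, kb) for 13850 of the 13917 genes (grey; 67 fall outside the axis), with the median in each of 5 span classes (black lines) and the 10 genes labelled. The class median declines to -0.37 above 300 kb, and Dcc lies below it while Ntn1 and Robo2 lie above the median of theirs.

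Across the 6 cultures the profiles of Neo1, Unc5c and Slit1 were the most alike. Likeness was taken as the root mean square difference between log2 CPM profiles centred on their own means, over 6 cultures in 2 groups, and is a description without a test. It was 0.11 for Neo1 and Slit1, 0.13 for Neo1 and Unc5c and 0.15 for Unc5c and Slit1. The least alike were Dcc and Robo2, at 0.94, followed by Dcc and Ntn1 at 0.81. Among 12068 named genes with a mean of at least 1 CPM, the profiles nearest to Dcc were those of Dpf3, Fgf18 and Snx25, at 0.11, 0.11 and 0.12, where the median gene was at 0.67. The nearest to Unc5c were Adamts3, Tmem145 and Slc1a6, at 0.06, 0.06 and 0.07, and the nearest to Unc5d were Tert, Slc1a4 and Adgrb1, each at 0.10.

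Other genes of the same pathways were read from a list of 58, of which 56 were matched and 55 tested. Their means were lower for 36 and higher for 19, with a median log2 fold change of -0.12. Their median span was 53392 bases, beside 20278 over all genes tested. With length offsets their median log2 fold change was 0.11, beside 0.08 over all genes tested. The groups did not overlap for 8 that were lower and 4 that were higher, and an unadjusted edgeR p under 0.05 was reached by 5 lower and 1 higher. Over all genes tested, 10.2% were lower and 7.42% higher without overlap, and 7.14% were lower and 3.69% higher at that unadjusted p. Of 9 tested receptors and co-receptors 8 were lower, with a median of -0.42, and of 10 ligands 6 were lower, with a median of -0.03. Of 36 cytoplasmic partners and processing enzymes 22 were lower, with a median of -0.12. With length offsets the medians of these 3 roles, in the same order, were -0.16, 0.17 and 0.16. Robo3, a Robo receptor, had 0 to 3 counts in each library and was too low to be tested.

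Slit3, the third Slit ligand, had the smallest unadjusted p within this list in edgeR with condition as the only term. It had 11.7, 7.90 and 8.67 CPM in S-SCAM KD cultures 1, 2 and 3, against 22.1, 23.0 and 23.0 CPM in Control cultures 1, 2 and 3. All S-SCAM KD values lay far below the narrow Control range, where Slit1 and Slit2 overlapped between groups. The log2 fold change of Slit3 was -1.27 (SE 0.24), with an unadjusted p of 0.000654 and an adjusted p of 0.228 in edgeR, and an adjusted p of 0.00153 in DESeq2. It was the only gene of the list that DESeq2 called, and the call was lost without Control culture 3, at an adjusted p of 0.0709. With length offsets the log2 fold change of Slit3 was -0.96 and its edgeR adjusted p 0.422.

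Draxin, a secreted netrin antagonist that binds Dcc, had 18.3, 9.80 and 20.7 CPM in S-SCAM KD cultures 1, 2 and 3, against 51.7, 25.2 and 38.2 CPM in Control cultures 1, 2 and 3. The groups did not overlap, and its log2 fold change was -1.24 (SE 0.36), with an adjusted p of 0.356 in edgeR and 0.0799 in DESeq2. With length offsets the log2 fold change of Draxin was -1.22. DESeq2 called Draxin without S-SCAM KD culture 3 (adjusted p = 0.0226), without Control culture 2 (0.0205) and with the replicate number as a block (0.00401), and its adjusted p lay between 0.00401 and 0.51 over the DESeq2 alternatives. Dscam, an adhesion molecule and netrin receptor, had 46.5, 52.3 and 42.6 CPM in S-SCAM KD cultures 1, 2 and 3, against 57.3, 69.1 and 73.6 CPM in Control cultures 1, 2 and 3, with a log2 fold change of -0.50 and an unadjusted p of 0.0331 in edgeR. With length offsets the log2 fold change of Dscam was -0.16, with an unadjusted edgeR p of 0.50. Flrt1, of the Flrt family of which the relative Flrt3 binds Robo1, averaged 6.34 ± 2.20 CPM in S-SCAM KD and 12.1 ± 2.37 CPM in Control (SD, n = 3 each), with a log2 fold change of -0.94 and an unadjusted p of 0.0239 in edgeR. Dscam and Flrt1 were also lower in every S-SCAM KD culture than in any Control culture. Siah2, a ubiquitin ligase of the family that targets Dcc for degradation, averaged 16.8 ± 2.47 CPM in S-SCAM KD and 24.8 ± 4.36 CPM in Control (SD, n = 3 each), with a log2 fold change of -0.56 and an unadjusted p of 0.0452 in edgeR. Vasp, an actin regulator downstream of guidance receptors, was the one with a higher mean, at 59.6 ± 3.33 CPM in S-SCAM KD and 41.9 ± 7.25 CPM in Control (SD, n = 3 each), with a log2 fold change of 0.51 and an unadjusted p of 0.0346 in edgeR. All 6 of these pathway genes, Slit3 included, had groups without overlap and an edgeR adjusted p of at least 0.228.

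The other families of guidance cues were semaphorins, plexins, neuropilins, ephrins and Eph receptors. They were read from a list of 53 genes, of which 50 were matched and 49 tested. The plexins Plxna1, Plxna4 and Plxnc1 were not matched by name and are missing from these counts. The median log2 fold change was -0.02 over the 49 tested genes. Of these, 26 were lower and 23 higher, and the groups did not overlap for 6 lower and 2 higher, where all genes gave 10.2% and 7.42%. An unadjusted edgeR p under 0.05 was reached by 7 lower and 2 higher, beside 7.14% and 3.69% of all genes. DESeq2 called 2 of the 49 genes, both lower, beside 1.07% of all genes. Their median gene span was 23570 bases, shorter than the 270833 bases of the netrin and Slit genes, and the difference between the lists was not tested.

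**Figure D4:**
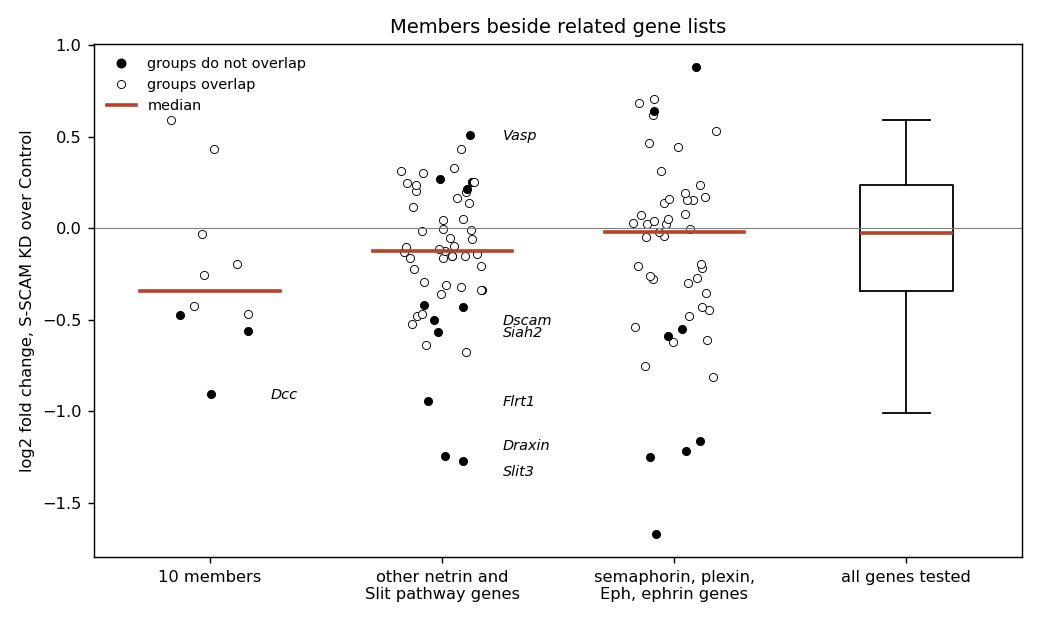
Log2 fold change of S-SCAM KD over Control (vertical axis) for the 10 netrin and Slit genes, 55 other genes of the same pathways, 49 semaphorin, plexin, neuropilin, Eph and ephrin genes, and all genes tested (box: quartiles; whiskers: percentiles 5 and 95). Red lines are medians, at -0.34, -0.12, -0.02 and -0.02, and filled points have groups without overlap.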

How the data were processed

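RNA-seq counts of 6 libraries, 3 S-SCAM KD and 3 Control, were analysed. According to the submitters' processing notes and the study's methods, single-end reads from unstranded TruSeq v2 libraries were demultiplexed with CASAVA 1.8.2, checked with FastQC 0.10.0, aligned with STAR 2.3.0 to rat rn5, handled with SAMtools 1.2 and counted per gene with HTSeq 0.6. The deposited values are raw counts per Ensembl gene, as the authors made them, without normalization. The Ensembl release is not given in the sources used here.

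Libraries were assigned by the column names that the sample descriptions give. Counts were tested with edgeR 4.0.16 in R 4.3.3 (TMM factors, filterByExpr with a minimum count of 10, quasi-likelihood test, condition as the only term), with Benjamini-Hochberg adjustment over all 13917 genes and a threshold of 0.05. CPM were counts scaled to the effective library size, the total of the tested genes multiplied by the TMM factor. Log2 CPM for likeness used a prior count of 2. Gene span was taken from start to end, so levels were not compared between genes. Length offsets came from a loess curve (span 0.5), fitted in each library, of the log2 ratio to the mean library on log10 gene span. DESeq2 1.42.0 was an alternative. The other alternatives were RLE factors, no filter, a stricter filter (at least 10 counts in every library), the replicate number as a block, and leaving out each culture; DESeq2 with a culture left out or with the block was added after the data were seen. The tests were checked on simulated data. Libraries were not stranded, so reads of overlapping antisense genes cannot be told apart. Overlapping genes in the table were found for 3 of the 10 genes and held at most 0.0331% of the gene's counts.

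The 10 genes and the lists were chosen with earlier results of these data known. Every one of the 10 was named, with all cultures for those whose groups did not overlap or whose unadjusted p was under 0.05 and for the ligands, and other genes of the pathways were named where the unadjusted p was under 0.05. For genes with groups that did not overlap, the 3 genes with the most similar profile were named. The roles that divide the pathway list were assigned after the data were seen. Promoter windows were read from the RefSeq table, whose coordinates are on GRCr8 and not rn5.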

Additional observations from a re-analysis of the deposited data

How the results depend on the processing

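The 10 genes were refitted under 20 alternatives, giving 200 values, of which 10 changed sign and 2 passed the threshold. Robo1 had a positive log2 fold change with length offsets (0.37), with the replicate block and length offsets (0.34), without S-SCAM KD culture 3 (0.14 in edgeR, 0.16 in DESeq2) and without Control culture 3 (0.16 and 0.17), the range with 1 culture left out being -0.13 to 0.16 in edgeR and -0.13 to 0.17 in DESeq2. Slit2 had a positive one with length offsets (0.16), with the replicate block and length offsets (0.16) and without Control culture 3 (0.0064 in edgeR, 0.022 in DESeq2), the range with 1 culture left out being -0.33 to 0.0064 in edgeR and -0.33 to 0.022 in DESeq2. The other 8 genes kept their direction under all 20. Calls among the 10 genes numbered 0 in edgeR and DESeq2 and 2, Dcc and Robo2, in DESeq2 without S-SCAM KD culture 3, and the range over DESeq2 fits with 1 culture left out was 0 to 2. Over all genes, calls numbered 195 in DESeq2, 8 in edgeR without the filter, 290 in DESeq2 with the block, 0 to 1 in edgeR with 1 culture left out (1 without S-SCAM KD culture 2) and in DESeq2 107, 122 and 736 without S-SCAM KD cultures 1, 2 and 3, and 146, 299 and 47 without Control cultures 1, 2 and 3. Among the other pathway genes, DESeq2 called 1, Slit3, and 2 with the block, Slit3 and Draxin, and 0 to 2 with 1 culture left out. Magi2 was called by DESeq2 (log2 fold change -1.44), also with the block (-1.48), and over DESeq2 fits with 1 culture left out its log2 fold change was -1.69 to -1.23, the call being lost without Control culture 3, at an adjusted p of 0.0709. The causes of these shifts were not tested.

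The deviations of same-numbered S-SCAM KD and Control cultures had correlations of 0.61, 0.10 and -0.09 for numbers 1, 2 and 3. Between different numbers the correlations ran from -0.45 to 0.23. With 3 cultures a group they cannot decide whether the numbers mark pairs. The main fit did not use the numbers as pairs, and the replicate block was an alternative. The column names also share a suffix between same-numbered cultures, and whether this marks a shared preparation is not given in the sources used here. Neo1 and Slit1, whose groups overlapped, were lower in S-SCAM KD for each same-numbered pair. With the replicate block edgeR called 0 of the 10 genes, and Dcc had a log2 fold change of -0.94 with an unadjusted p of 0.00507 and an adjusted p of 0.275.

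With 3 cultures a group, a difference such as that of Unc5d had a 95% confidence interval of -1.13 to 0.01, so the data fix neither its presence nor its absence. The lowest count behind a gene was 208, for Unc5c in Control culture 2.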
